A study of Mus musculus with 3 samples.

Results

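Tox and Tox2 encode a pair of related DNA-binding proteins of T cells, and their transcripts were followed here in splenic donor T cells of mice with graft-versus-host disease (GVHD) that had been given saline or cyclosporine (CSA). They are 2 of the 18029 genes counted in single cells, taken by name. Both were chosen by measured values, because their levels differed with CSA dose and between T cell clusters in these same cells. Levels and changes of Tox and Tox2 across doses and clusters are therefore given as a description, with no test. For these 2 genes, only measures that did not themselves enter that choice are tested. Of these, the difference between CD4+ and CD8+ cells and clonal expansion are not free of it. All recipients were irradiated B6D2F1 mice that received B6 bone marrow, B6 T cells and T cells carrying the transgenic TEa receptor, which recognises a host peptide. Every group shared this transplant, so there was no group without GVHD. Saline, CSA 5 mg/kg or CSA 50 mg/kg was given daily from day 0 to day 6, and spleens were taken on day 7. The ages of the mice are not given in the sources used here. Each of the 3 groups held 6 mice as 3 hashtagged pools of 2 mice, and the 3 pools of a group ran in 1 droplet capture, so capture and treatment cannot be told apart. The pool is the replicate throughout. A p for a dose change measures the spread between pools, and a p for a comparison within pools the spread of that difference over pools.

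The deposited data held 21204 cells, of which 10371 were CD4+ T cells and 10833 were CD8+ T cells. The 280 TEa cells among the CD4+ cells were set apart and are left out of the CD4+ values unless named. A pool summed 3994968 to 7592334 unique molecular identifiers (UMIs, 1 per captured transcript) over 875 to 1479 CD4+ cells, and 4392100 to 11454636 UMIs over 692 to 1615 CD8+ cells. Depth per cell rose with dose. From saline through the lower to the higher dose, the median CD4+ cell held 3097, 4396 and 5979.5 UMIs, and the median CD8+ cell 4108, 6121.5 and 7183. Every CD4+ cell held at least 1 Cd4 UMI and 0 held a Cd8a UMI, and the CD8+ cells mirrored this, as a split on these 2 transcripts would give. Cd8b1, the partner chain of Cd8a, was nevertheless present in 31.2% of CD4+ cells, against 98.6% of CD8+ cells. This share differed by capture, from 39.5-42.4% of CD4+ cells in the saline pools through 34.8-36.5% in those of the lower dose to 12.04-14.5% in those of the higher dose, and over clusters of at least 50 cells it ranged from 37.0% to 45.0% under saline (11 clusters), from 33.1% to 38.8% at the lower dose (11 clusters) and from 9.90% to 18.6% at the higher dose (10 clusters). Against its level in CD8+ cells, Cd8b1 in CD4+ cells stood at 11.3 ± 0.90%, 6.40 ± 0.41% and 0.859 ± 0.065% (SD, n = 3 pools). Captures shared 218 cell barcodes, and no cell name stood in both lineages. Summed erythroid markers, 5 genes, moved from 3.21-14.5 CPM (a gene's UMIs relative to all UMIs of the pool) under saline to 27.7-36.6 CPM at 50 mg/kg in CD4+ cells and from 3.89-17.6 to 23.7-48.1 CPM in CD8+ cells, while the summed cycling genes moved from 1446-1590 to 806-884 CPM and from 2351-2515 to 785-907 CPM. The 4 B cell markers summed to 2.37-13.8 CPM in CD4+ and 17.7-30.5 CPM in CD8+ pools. The part of these markers in the results below was not tested beyond the values given there.

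Both proteins carry a single HMG box, a fold that binds and bends DNA. TOX is required for CD4+ lineage development in the thymus and, in the periphery, is induced by sustained antigen receptor signalling through calcineurin and NFAT and maintains exhausted CD8+ T cells. TOX2 is known from follicular helper T cells and acts with TOX in exhausted cells. CSA inhibits calcineurin, which leaves NFAT phosphorylated in the cytoplasm. Tox (ENSMUSG00000041272) lies on chromosome 4 at 6686353-6991557 on the minus strand of GRCm38.p6 and spans 305205 bp, and Tox2 (ENSMUSG00000074607) lies on chromosome 2 at 163203058-163324172 on the plus strand and spans 121115 bp.

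Because CSA acts on NFAT, the RefSeq promoter table of the same build was searched for GGAAA, the core bound by NFAT, and for TTTCC, the same core on the other strand. The table lists 5 start sites of Tox2, and 2 of the 5 windows of 250 bases before them held the core, against 55.6% of all 32851 windows (18254). These 2 windows overlap almost completely, so they hold the same match. A window of each kind is printed below, 5′ to 3′ on the plus strand, to show how the 2 promoter regions differ. The upstream one is 75.2% G and C with 0 matches and the downstream one 52.8% G and C with 1 match, written in capitals, where the median over all windows is 52.4%. A match is a description of the sequence and not a binding site.
Tox2 window chr2:163202877-163203126: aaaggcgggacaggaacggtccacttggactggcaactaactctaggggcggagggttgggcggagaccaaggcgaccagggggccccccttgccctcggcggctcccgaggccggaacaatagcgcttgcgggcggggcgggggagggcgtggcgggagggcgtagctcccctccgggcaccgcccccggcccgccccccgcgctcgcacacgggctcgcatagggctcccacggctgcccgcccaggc
Tox2 window chr2:163225203-163225452: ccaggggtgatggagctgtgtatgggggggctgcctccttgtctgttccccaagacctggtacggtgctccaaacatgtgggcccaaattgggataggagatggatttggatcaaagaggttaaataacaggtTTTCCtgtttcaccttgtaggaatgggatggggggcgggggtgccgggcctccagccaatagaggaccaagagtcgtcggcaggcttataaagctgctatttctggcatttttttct

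The first comparison asked how far the transcripts of Tox and Tox2 changed with CSA dose in all CD4+ and all CD8+ T cells. Tox was lower at 5 mg/kg and lower again at 50 mg/kg in both lineages. Tox2 differed little at 5 mg/kg and had almost disappeared at 50 mg/kg. In CD4+ cells the 3 saline pools held 154, 154 and 131 CPM of Tox (TMM-normalised, that is, after each pool was scaled so that most genes match), the 5 mg/kg pools 92.9, 95.6 and 99.4 CPM, and the 50 mg/kg pools 12.2, 14.5 and 14.9 CPM. In CD8+ cells the same pools held 152, 170 and 170 CPM, then 112, 106 and 114 CPM, then 7.91, 7.97 and 12.6 CPM. No pool of one dose overlapped another dose in either lineage. As log2 changes against saline, Tox in CD4+ cells differed by -0.60 (SE 0.067) at 5 mg/kg and by -3.39 (SE 0.087), or 10.5-fold lower, at 50 mg/kg, and in CD8+ cells by -0.57 (SE 0.075) and by -4.07 (SE 0.10), or 16.8-fold lower. Pools lay lower without overlap for 29% and 37% of all genes tested at the lower and higher dose in CD4+ cells, and for 33.5% and 38.3% in CD8+ cells, so the lack of overlap alone did not set Tox apart.

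Tox2 in CD4+ cells stood at 36.7, 46.6 and 42.3 CPM in the saline pools, at 41.6, 34.1 and 40.9 CPM at 5 mg/kg, and at 0.34, 0.50 and 1.34 CPM at 50 mg/kg, where the 3 pools held 2, 3 and 9 UMIs. In CD8+ cells it stood at 8.54, 8.34 and 11.6 CPM, at 12.8, 11.4 and 9.43 CPM, and at 0.69, 0.93 and 1.33 CPM, the last from 5, 7 and 13 UMIs. The saline and 5 mg/kg pools overlapped in both lineages, and the 50 mg/kg pools lay below all others. Tox2 at 5 mg/kg differed from saline by -0.12 (SE 0.11) on the log2 scale in CD4+ cells and, in CD8+ cells, by 0.21 (SE 0.17), a value that became -0.22 when pools were scaled by their total counts alone. The change at 50 mg/kg was -5.76 (SE 0.22), or 54.2-fold lower, in CD4+ cells and -3.20 (SE 0.25), or 9.22-fold lower, in CD8+ cells. From the summed UMIs alone (766 under saline and 14 at 50 mg/kg in CD4+ cells, 264 and 25 in CD8+ cells) the ratio without TMM scaling was 75.9 (95% counting interval 45.0-140) and 13.5 (8.94-21.2). Here and below, such intervals cover counting error only.

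**Figure D1:**
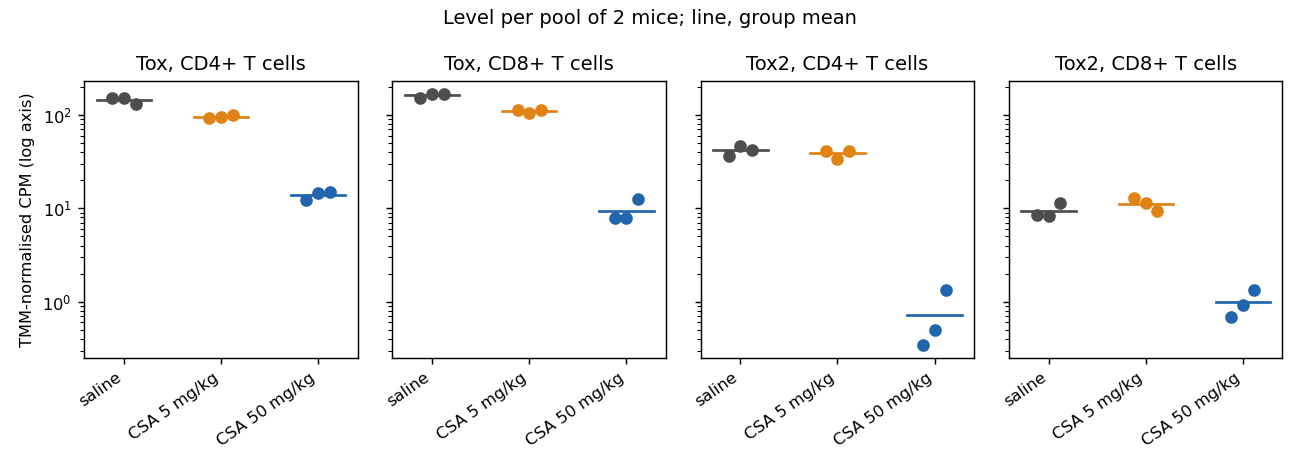
Level of Tox and Tox2 in each pool of 2 mice (points; line, mean of 3 pools) in TMM-normalised CPM on a log axis, for CD4+ and CD8+ T cells by treatment group. Tox stood at 3 separate levels, with means of 146, 96.0 and 13.9 CPM in CD4+ cells, whereas saline and 5 mg/kg pools overlapped for Tox2.

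Most of the dose response lay between the 2 CSA doses. From 5 to 50 mg/kg Tox differed by -2.78 in CD4+ cells and by -3.50 in CD8+ cells on the log2 scale, and Tox2 by -5.64 and -3.41. Few genes had a more negative change at 50 mg/kg than these genes. Because the genes were chosen for levels that differed with dose, such ranks follow from the choice and are only a description. Of 10568 genes tested in CD4+ cells, 13 were below Tox2 and 63 below Tox, and of 10841 tested in CD8+ cells, 34 were below Tox and 70 below Tox2. Scaling by total counts instead of TMM moved the median of all genes by -0.37 and -0.45 in CD4+ cells and by -0.43 and -0.53 in CD8+ cells at the lower and higher dose, and every change of Tox and Tox2 by a like amount (to -0.96 and -3.83 for Tox in CD4+ cells). In these bulk-like sums, fewer cells expressing a gene and less transcript per cell cannot be told apart, which is why clusters and single cells follow.

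To see which T cells held the transcripts, UMIs were summed by pool over the clusters deposited by the authors, 13 of CD4+ and 9 of CD8+ cells, of which those with at least 10 cells in a pool were used. The study's names for the clusters are kept. For CD8+ cells the deposited numbers followed another order than the names, which were therefore matched by marker genes such as Cd226, Tcf7, Fcer1g and the cycling genes. The CPM values printed for clusters are not TMM-scaled. Log2 changes within clusters, and whether pools of different doses overlapped there, were taken after TMM scaling. Cluster assignment used the expression of these same cells, so the differences between clusters carry no test.

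Tox was widely spread over clusters in saline mice. Among CD4+ cells it was highest in the follicular helper cluster C4 at 310 ± 17.7 CPM (SD, n = 3 pools), followed by the interferon-marked Isg15hi cluster C10 at 275 ± 119 CPM and the cytotoxic cluster C7 at 256 ± 27.2 CPM. The Cd226hi effector cluster C0 stood at 188 ± 23.1 CPM, the cycling Cd226hi cluster C6 at 176 ± 24.5 CPM, the Tcf7hi precursor-like cluster C2 at 164 ± 28.2 CPM and the Fcer1ghi cluster C8 at 148 ± 43.4 CPM. CD226 is an activating co-receptor. The Cd226lo effector cluster C1 held 61.5 ± 10.8 CPM, its cycling counterpart C3 94.5 ± 19.8 CPM, the second cycling cluster C5 107 ± 15.3 CPM and the naive cluster C9 81.2 ± 9.54 CPM. Regulatory cells (C11, 56.4 CPM) and Th17 cells (C12, 61.8 CPM) reached 10 cells in only 1 saline pool. Of the 12 steps between neighbours in this order, the pools were apart at 2, from C7 to C0 and from C9 to the single pool of C12. At the other 10 steps the neighbours overlapped.

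In CD8+ cells of saline mice the Tcf7hi cluster C5 led with 367 ± 30.3 CPM of Tox, above the Cd226hi effector cluster C0 at 266 ± 26.7 CPM. TCF1, the product of Tcf7, marks T cells that keep the capacity to self-renew. The cluster named exhausted, C8, held 228 ± 21.7 CPM, close to the cycling Cd226hi cluster C4 at 225 ± 46.3 CPM and the Fcer1ghi cluster C6 at 218 ± 77.8 CPM. Lower levels were found in the cycling clusters C2 (152 ± 4.63 CPM) and C3 (141 ± 10.6 CPM) and in Cd226lo effectors, C1 (147 ± 13.5 CPM). Naive CD8+ cells, C7, held 36.8 ± 15.4 CPM, the lowest of the 9 clusters. Pools of neighbours were apart at 3 of 8 steps, from C5 to C0, from C6 to C2 and from C3 to C7. The cluster named exhausted therefore did not stand apart from its neighbours in Tox. Summed over all pools of all groups, it held 1980 CPM of the chemokine gene Ccl3. Its Pdcd1 stood at 229 CPM, against 494 CPM in C4 and 380 CPM in C5. Lag3 stood at 253 CPM, against 247 and 364 CPM, and Havcr2 at 217 CPM, against 362 and 21.5 CPM.

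Tox2 was narrower. In CD4+ cells of saline mice it was highest in follicular helper cells, C4, at 150 ± 29.2 CPM, and next in the Tcf7hi precursor-like cluster C2 at 97.4 ± 19.97 CPM. The Isg15hi cluster C10 (69.5 ± 37.8 CPM), the 1 pool of Th17 cells (61.8 CPM) and the Fcer1ghi cluster C8 (50.8 ± 13.3 CPM) came next, and C3, C6, C7, C1, C5, C0 and C9 lay between 37.4 and 13.0 CPM. Cd226hi effectors, C0, which ranked high for Tox, ranked among the lowest of the 13 clusters for Tox2 at 15.3 ± 2.22 CPM. The pools were apart at 2 of 12 steps, from C4 to C2 and from C5 to C0. In CD8+ cells Tox2 ran from 26.1 ± 17.4 CPM in the Tcf7hi cluster C5 and 14.1 ± 4.72 CPM in the cluster named exhausted to 7.40 ± 7.21 CPM in naive cells. Neighbours overlapped at all 8 steps. Summed over pools, C4 and C2 together supplied most Tox2 of CD4+ cells under saline, with 38.1% and 20.8% of its UMIs, whereas C4 and C0 supplied 22.4% and 21.5% of the Tox UMIs.

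**Figure D2:**
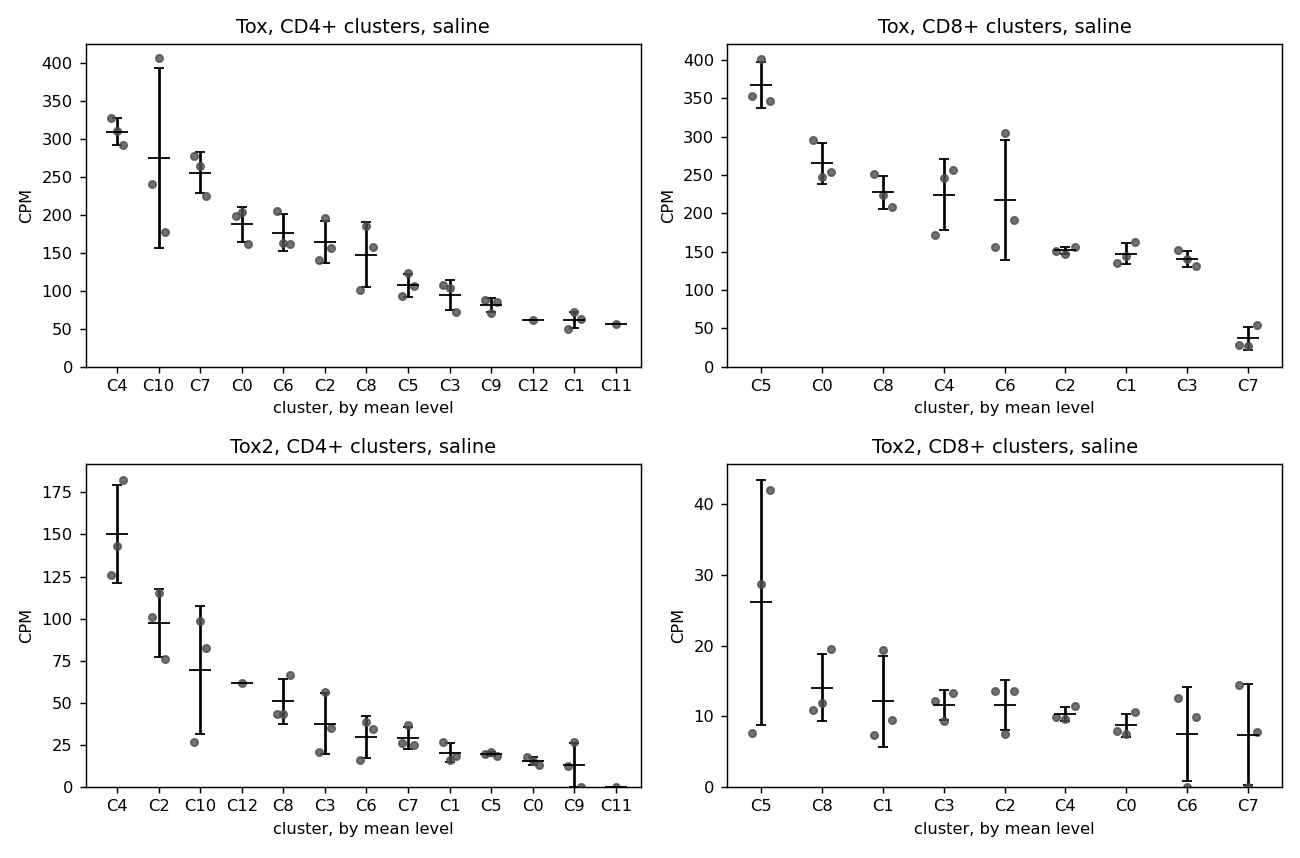
Level of Tox (top) and Tox2 (bottom) in each CD4+ and CD8+ cluster of saline mice in CPM, ordered by mean; points are pools with at least 10 cells, the dash is their mean and the bars the SD. Tox was above 140 CPM in 7 CD4+ clusters, while Tox2 passed 90 CPM in C4 and C2 alone.

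The same clusters were then compared across doses. At 50 mg/kg Tox was lower, without overlap of pools, in 11 of the 11 CD4+ clusters that could be compared and in 7 of 8 CD8+ clusters, with median log2 changes of -3.02 and -3.76. Over all genes tested in these clusters, 23% lay lower without overlap in CD4+ clusters (16.7% to 32% by cluster) and 26.4% in CD8+ clusters (9.26% to 33.1%). Tox passed the filter on low counts behind these shares in 10 of the 11 and in 7 of the 8 clusters, naive cells being the ones left out. The exception was naive CD8+ cells, C7, whose pools held 28.8, 27.0 and 54.6 CPM under saline and 30.4, 9.26 and 14.9 CPM at 50 mg/kg (log2 change -0.97, SE 0.55). Naive CD4+ cells, C9, went from 87.9, 70.3 and 85.4 CPM to 26.3, 23.1 and 30.2 CPM, a log2 change of -1.24 (SE 0.58), less negative than the median cluster.

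The clusters highest in Tox under saline kept little of it. In follicular helper cells, C4, the saline pools held 328, 310 and 292 CPM, the 5 mg/kg pools 353, 259 and 271 CPM, and the 50 mg/kg pools 40.3, 38.3 and 59.5 CPM from 2, 1 and 2 UMIs. The saline and 5 mg/kg pools of C4 overlapped, and at 50 mg/kg the log2 change was -2.59 (SE 0.47). Cytotoxic CD4+ cells, C7, moved in 2 steps instead, from 277, 265 and 225 CPM through 134, 108 and 108 CPM to 18.7, 25.8 and 33.4 CPM (log2 change at 50 mg/kg -2.97, SE 0.22). Precursor-like cells, C2, held 141, 196 and 156 CPM, then 121, 111 and 133 CPM, then 33.3, 41.2 and 27.2 CPM (-2.19, SE 0.20), and at 50 mg/kg they supplied 20.5% of all Tox UMIs of CD4+ cells. In the cycling Cd226hi cluster C6 there was no Tox UMI among 122671 UMIs of 34 cells at 50 mg/kg, which is at least 7.09-fold below the saline level, taking 3 counts over the group as the limit that a count of 0 allows. Among CD8+ cells the Tcf7hi cluster C5 held 353, 402 and 347 CPM, then 239, 185 and 204 CPM, then 13.0, 26.6 and 19.7 CPM (-3.80, SE 0.27).

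Cd226hi CD8+ effectors, C0, went from 296, 247 and 254 CPM through 51.3, 112 and 166 CPM to 3.75, 6.88 and 3.04 CPM (-5.18, SE 0.24). The CD8+ cluster named exhausted, C8, held 251, 224 and 208 CPM under saline and 11.6, 15.5 and 24.3 CPM at 50 mg/kg (-3.30, SE 0.30). In C8 the 2 pools of the lower dose that had at least 10 cells stood at 160 and 123 CPM, between the other groups. The cycling Cd226hi cluster C4, which supplied 34.8% of Tox UMIs of CD8+ cells under saline, was left with 20 cells and 2 Tox UMIs at 50 mg/kg, 17.9-fold lower (95% counting interval 4.96-148).

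The lower dose left an uneven picture for Tox. Pools lay below saline without overlap in 4 of 11 CD4+ clusters (C1, C5, C7 and C10) and in 6 of 9 CD8+ clusters, with median log2 changes of -0.39 and -0.44, where 14.2% of genes did so over the CD4+ clusters (9.51% to 20.1% by cluster) and 18.6% over the CD8+ clusters (6.46% to 27.2%). These counts were taken after TMM scaling. In unscaled CPM the pools of CD4+ clusters C0, C2 and C3 lay below saline without overlap as well. Among CD8+ clusters, those of C0, C1, C2, C3, C5, C6 and C8 did so in unscaled CPM. The log2 change of Tox was 0.05 in follicular helper cells and 0.08 in the cycling Cd226hi CD4+ cluster C6. For Tox2 at 5 mg/kg, 3 of 11 CD4+ clusters (C1, C3 and C5) and 1 of 9 CD8+ clusters (C4) were lower without overlap, 1 CD8+ cluster (C6) was higher, and 8 and 7 overlapped.

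Tox2 at 50 mg/kg was lower without overlap in 10 of 11 CD4+ clusters, with naive C9 the exception, and in 6 of 8 CD8+ clusters, with C6 and naive C7 the exceptions. Over the genes that passed the filter on low counts in each cluster, 23% and 26.4% did so, but Tox2 itself passed that filter in only 6 of these 11 CD4+ and 3 of these 8 CD8+ clusters, so its counts cannot be read against those shares. In follicular helper cells the pools held 126, 143 and 183 CPM under saline, 163, 86.3 and 63.2 CPM at 5 mg/kg, and 0 of 109331 UMIs in 45 cells at 50 mg/kg, which is at least 5.55-fold lower. Precursor-like CD4+ cells, C2, held 101, 115 and 76.0 CPM, then 92.7, 96.1 and 115 CPM, then 0, 2.29 and 7.77 CPM (log2 change -4.30, SE 0.37). These cells held level Tox2 at the lower dose and lost it at the higher dose, and they supplied 55.0% of the Tox2 UMIs of CD4+ cells at 5 mg/kg. The limits set by counts of 0 were at least 12.3-fold lower for C7, 15.01-fold for C8 and 8.65-fold for C10, and 6 of the 11 CD4+ clusters compared had no Tox2 UMI at 50 mg/kg. In CD8+ cells the Tcf7hi cluster C5 held 7.56, 28.7 and 42.1 CPM, then 36.3, 32.1 and 24.4 CPM, then 0, 0 and 3.28 CPM, the last from 1 UMI (16.2-fold lower, interval 2.77-656).

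**Figure D3:**
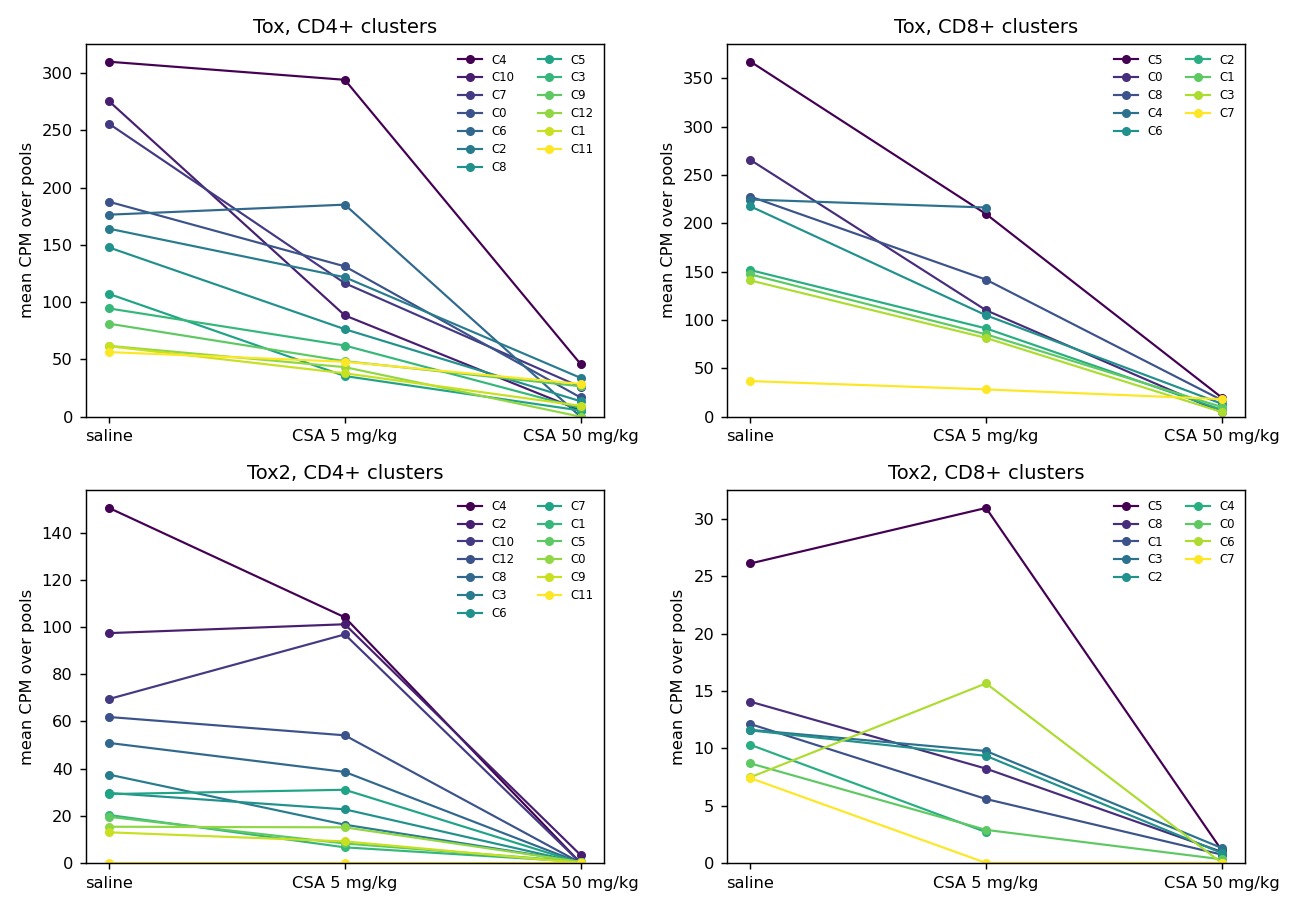
Mean CPM over pools of Tox (top) and Tox2 (bottom) at each dose, 1 line per CD4+ or CD8+ cluster. Lines of Tox fan out under saline (56.4 to 310 CPM in CD4+ clusters) and lie close together at 50 mg/kg on this linear axis. CD4+ clusters there still differed in relative terms, with 0 in C6, 5.36 CPM in C5 and 46.0 CPM in C4, the highest.

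Since the mix of clusters also differed with dose, the pool levels were recomputed with the share of UMIs from each cluster held at its saline value. In CD4+ cells the log2 change of Tox, in unscaled CPM, went from -0.97 to -0.38 for the lower dose and from -3.84 to -3.33 for the higher dose. In CD8+ cells it went from -0.99 to -0.54 and from -4.64 to -4.29. With the shares held at those of 50 mg/kg instead, the change at the lower dose was -0.78 in CD4+ and -0.84 in CD8+ cells, so how much smaller it became depended on the shares chosen. Tox2 in CD4+ cells went from -0.46 to -0.36 and from -6.28 to -6.48. For Tox2 in CD8+ cells the value at 5 mg/kg went from -0.18 to -0.61 (SD 0.44 over pools), and to -0.46 with the shares of 50 mg/kg. There the small change over all CD8+ cells became more negative once shares were held. The value at 50 mg/kg went from -3.80 to -2.03, but with an SD of 2.39 over pools, because a single UMI in a very small cluster gained weight.

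Single cells were compared after each was thinned to 2000 UMIs, because depth rose with dose, and cells under 2000 UMIs were left out (395, 452 and 80 CD4+ cells and 121, 83 and 8 CD8+ cells from saline to 50 mg/kg). At this depth Tox was seen in 25.3 ± 1.31%, 15.3 ± 0.78% and 2.496 ± 0.21% of CD4+ cells in the same order of groups (SD, n = 3 pools), and in 29.1 ± 1.13%, 16.2 ± 0.99% and 1.62 ± 0.41% of CD8+ cells. Without thinning the shares were 35.8%, 29.0% and 7.16% of CD4+ cells and 45.7%, 36.2% and 5.56% of CD8+ cells. Naive cells were set beside these shares, although they were not free of Tox, since naive CD4+ cells held more of it under saline than Cd226lo effectors (81.2 against 61.5 CPM). Thinned the same way, Tox was seen in 17.3 ± 8.57%, 9.54 ± 4.54% and 5.01 ± 0.57% of naive CD4+ cells and in 7.56 ± 3.67%, 5.92 ± 3.75% and 3.23 ± 2.13% of naive CD8+ cells (median depth before thinning 1981, 3216 and 3144.5 UMIs in CD4+ and 3499, 4514.5 and 4995 UMIs in CD8+ naive cells). At 50 mg/kg the mean share over all cells lay below that of naive cells, so these shares show no Tox above the naive level, although the CPM of C4 (46.0) and C2 (33.9) was above that of naive CD4+ cells (26.5).

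Tox2 was seen in fewer cells. The thinned shares were 9.25 ± 0.95%, 6.85 ± 0.91% and 0.15 ± 0.13% of CD4+ cells and 2.15 ± 0.33%, 1.76 ± 0.23% and 0.14 ± 0.04% of CD8+ cells, and without thinning 13.9%, 12.9% and 0.35% of CD4+ cells and 4.79%, 5.91% and 0.69% of CD8+ cells. In naive CD4+ cells the thinned means were 3.36%, 2.16% and 0, and in naive CD8+ cells 1.42%, 0 and 0. The thinned share of Tox2 in CD8+ cells thus stood slightly lower at 5 mg/kg than under saline while the unthinned share stood higher.

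**Figure D4:**
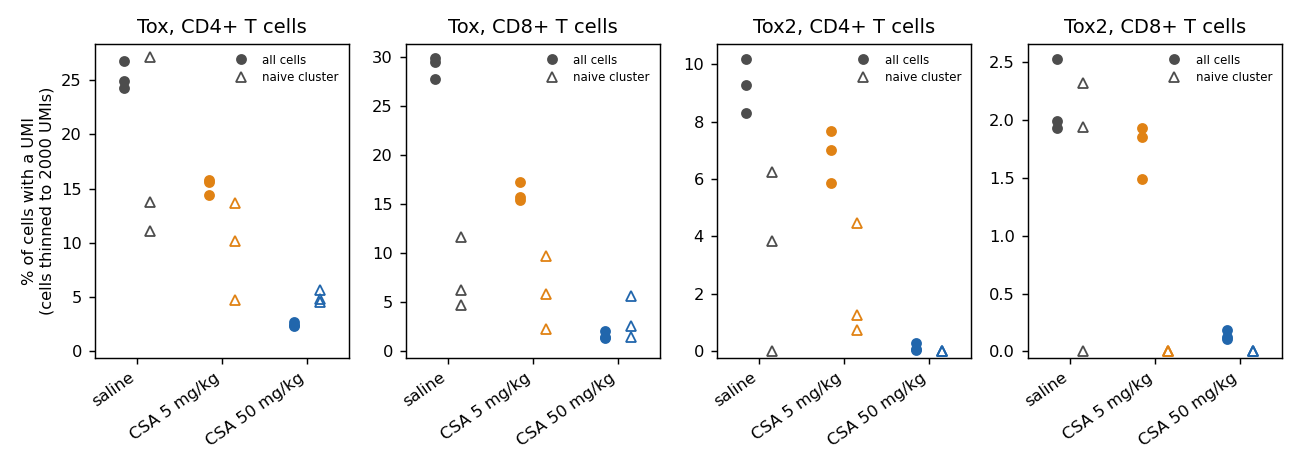
Share of CD4+ and CD8+ T cells with at least 1 UMI of Tox or Tox2 after thinning each cell to 2000 UMIs, by group; filled circles are pools over all cells and open triangles the naive cluster (C9 of CD4+, C7 of CD8+ cells). At 50 mg/kg the circles for Tox average 2.496% and 1.62%, below the triangles' means of 5.01% and 3.23%.

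In thinned cells of saline mice Tox was found more often in cells that also held a UMI of Tox2 or of Pdcd1. Tox was seen in 39.4 ± 6.93% of CD4+ cells with a Tox2 UMI and in 23.3 ± 2.32% of those without, higher in 3 of 3 pools. The corresponding means in CD8+ cells were 47.9% and 28.9%. With a UMI of Pdcd1, which encodes the inhibitory receptor PD-1, Tox was seen in 32.5% of CD4+ cells against 20.5% of those without, and in 38.4% against 21.8% of CD8+ cells, higher in 3 of 3 pools in both. Tox2 followed Tcf7 in CD4+ cells, with 15.5% against 4.83% (3 of 3 pools), and less clearly in CD8+ cells, with 3.11% against 2.28% (2 of 3 pools). With a UMI of Gzmb, which encodes the cytotoxic protease granzyme B, Tox was seen in 28.3% of CD8+ cells against 37.1% of those without, higher in 0 of 3 pools, and in 23.6% against 26.3% of CD4+ cells, higher in 1 of 3 pools. These shares describe co-detection at a fixed depth and were not tested.

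Whether CD8+ and CD4+ cells differed in the 2 genes did not itself enter the choice of genes. It is not free of that choice, since each lineage is the sum of clusters whose levels entered it. The p-values below are therefore no independent support. The difference was tested within pools (edgeR quasi-likelihood test with the pool as a block, p adjusted over all genes). Under saline Tox was slightly higher in CD8+ cells. The CD4+ cells of the 3 pools held 150, 150 and 128 CPM and the CD8+ cells 157, 176 and 176 CPM, so CD8+ was higher in 3 of 3 pools (log2 difference 0.25, SE 0.056, edgeR adjusted p = 0.000715). The same difference, 0.25 (SE 0.070), was found at 5 mg/kg in 3 of 3 pools (edgeR adjusted p = 0.00574). At 50 mg/kg the sign turned, with CD8+ lower by a log2 difference of -0.48 (SE 0.15, edgeR adjusted p = 0.0157) and higher in 0 of 3 pools. That p compares the lineages within this dose. The turn of sign itself rests on the dose changes that chose the genes and carries no test. Lineage differences were common, since 40.1%, 34% and 30.1% of all genes passed the test from saline to 50 mg/kg. The differences in Tox were small, and the calls at saline and 50 mg/kg were lost when single pools were left out, with adjusted p = 0.0677 without saline replicate 3, and 0.0702 and 0.173 without CSA 50 mg/kg replicates 1 and 2 (edgeR). With DESeq2 the saline and 5 mg/kg calls were lost as well (adjusted p = 0.0887 and 0.0739).

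Tox2 was higher in CD4+ cells than in CD8+ cells at saline and the lower dose. Under saline it averaged 40.8 CPM in CD4+ and 9.82 CPM in CD8+ cells, a log2 difference of -2.06 (SE 0.11, edgeR adjusted p = 9.75e-14), and at 5 mg/kg the difference was -1.78 (SE 0.13, edgeR adjusted p = 3.9e-11). With 50 mg/kg both lineages were near 0 (0.71 and 1.00 CPM) and the difference of 0.44 (SE 0.49) did not pass (edgeR adjusted p = 0.563). Against saline the CD8+ minus CD4+ difference stood 0.00 (Tox) and 0.28 (Tox2) apart at 5 mg/kg, and -0.73 (SE 0.16) and 2.495 (SE 0.51) apart at 50 mg/kg. These shifts are made of the dose changes that chose the genes and carry no test, and for Tox2 the value rests on 14 UMIs in CD4+ and 25 UMIs in CD8+ cells.

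As CD4+ cells contained Cd8b1 transcripts, these comparisons were repeated, after seeing the data, on CD4+ cells with no Cd8b1 UMI. In those cells Tox stood at 172 ± 19.1, 91.1 ± 1.45 and 12.4 ± 1.95 CPM across doses, against 180 ± 12.1, 87.6 ± 7.34 and 11.9 ± 7.40 CPM in CD4+ cells with one, and Tox2 at 50.8 ± 4.55, 35.3 ± 7.10 and 0.713 ± 0.480 CPM against 49.2 ± 9.11, 38.1 ± 5.18 and 0.271 ± 0.469 CPM (unscaled). The changes at 50 mg/kg were -3.35 for Tox and -5.64 for Tox2, and the shifts between lineages at 50 mg/kg were -0.77 and 2.39. Across the same groups the lineage difference of Tox in these cells was 0.28, 0.24 and -0.49 (edgeR adjusted p = 6.90e-04, 0.0185 and 0.0160).

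Clonal expansion was a second measure that did not itself enter the choice of genes. It is not free of that choice, since the study reports that clonality differed between clusters, whose levels entered it. Cluster was not held fixed here, and its part in the differences was not tested. Cells whose receptor sequence was found in at least 2 cells of a pool were called expanded and set against cells with a receptor seen once, in each of the 9 pools. In CD4+ cells Tox averaged 88.7 CPM in single and 116 CPM in expanded clonotypes and was higher in expanded cells in 7 of 9 pools (log2 difference 0.32, SE 0.088, edgeR adjusted p = 0.0107), where 17.4% of all genes passed. This call was lost with DESeq2 (0.24, adjusted p = 0.261) and without saline replicate 1 (0.25, edgeR adjusted p = 0.0729). Expanded cells were also deeper, with a median of 3691 UMIs against 3159 in CD4+ cells under saline. From saline to the higher dose the CD4+ difference was 0.34, 0.50 and -0.48 (edgeR adjusted p = 0.0210, 0.00810 and 0.325), where 7.98%, 6.44% and 6.43% of genes passed. In CD8+ cells Tox averaged 100 CPM in single and 117 CPM in expanded cells, higher in 6 of 9 pools, a difference of 0.19 (SE 0.070) that did not pass (edgeR adjusted p = 0.075), where 13.7% of genes passed. By group it was 0.14, 0.38 and -0.36 there (edgeR adjusted p = 0.300, 0.0395 and 0.620), where 10.4%, 3.33% and 1.85% of genes passed.

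Tox2 did not pass, at -0.10 (SE 0.13, edgeR adjusted p = 0.647) in CD4+ cells, where it was lower in expanded cells in 8 of 9 pools, and at -0.14 (SE 0.18, adjusted p = 0.678) in CD8+ cells, where it was lower in 5 of 9. Expanded CD4+ cells at 50 mg/kg held 0 Tox2 among 5063332 UMIs, which allows up to 0.592 CPM, and single CD4+ cells held 12 UMIs or 0.866 CPM. The TEa cells, which all carry 1 receptor against a host peptide, were compared with the other CD4+ cells of the same pools in the 7 pools that had at least 10 of them (264 cells). Neither gene passed, with -0.24 (SE 0.14, edgeR adjusted p = 0.567) for Tox and 0.16 (SE 0.21, adjusted p = 0.882) for Tox2, where 2.66% of all genes passed.

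The other genes around TOX were taken from lists of the calcineurin pathway and of T cell states, and were tested over all genes. These lists were chosen with earlier results of these data known. Their calls across dose are therefore a description and no independent support for the changes of Tox and Tox2. At 50 mg/kg 70.5% of all genes tested in CD4+ cells passed (35.8% lower, 34.7% higher) and 74% in CD8+ cells (36.9% lower, 37.1% higher), so counts per list are read against a high background. The split depended on scaling, since the share of called genes that were higher fell from 49.2% to 20.4% in CD4+ cells and from 50.1% to 19.9% in CD8+ cells with scaling by total counts. At the lower dose 51.7% of genes passed in CD4+ cells (25.6% lower, 26.1% higher) and 60.2% in CD8+ cells (30.3% lower, 29.9% higher), and the share of higher calls went from 50.4% to 13.9% and from 49.7% to 15.8%. Tox4, a more broadly expressed relative found in a nuclear phosphatase complex, averaged 94.99 ± 1.99, 83.4 ± 4.63 and 74.3 ± 1.76 CPM across doses in CD4+ cells and 86.0 ± 0.99, 72.5 ± 9.49 and 71.7 ± 2.70 CPM in CD8+ cells. It fell by 0.35 (SE 0.057) and 0.26 (SE 0.067) on the log2 scale at 50 mg/kg (edgeR adjusted p = 1.16e-05 and 0.00181), smaller changes than those of Tox and Tox2. Tox3 was not among the genes counted.

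Of the 9 genes of the calcineurin and NFAT list, 7 fell, 2 rose and 0 did not pass in CD4+ cells at 50 mg/kg, and 6 fell, 2 rose and 1 did not pass in CD8+ cells, with median log2 changes of -0.60 and -0.74 against medians over all genes of -0.01 and 0.00. Nfat5, the calcium-independent relative of the NFAT factors, fell most, with log2 changes of -1.497 in CD4+ and -2.05 in CD8+ cells. Nfatc1 and Nfatc2, which encode the NFAT proteins that calcineurin activates, fell by 1.06 and 1.21 in CD4+ cells. The catalytic subunit genes Ppp3cc in CD4+ cells (0.24) and Ppp3ca in CD8+ cells (0.42) rose, but these became -0.20 and -0.11 with scaling by total counts. Rcan1, an inhibitor of calcineurin that is itself an NFAT target, had a change of -0.30 in CD8+ cells that did not pass (edgeR adjusted p = 0.286). By the lower dose the list already stood at 6 lower and 1 higher of 9 in CD4+ cells and 6 lower and 0 higher in CD8+ cells, with Nfatc2 at -0.95 in CD4+ cells.

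Transcription factors induced by the T cell receptor went both ways at 50 mg/kg. Of 12, 8 fell and 2 rose in CD4+ cells and 7 fell and 3 rose in CD8+ cells, with medians of -0.66 and -0.56. The AP-1 gene Fosb fell most in CD4+ cells, by 1.78, and Nr4a2, a nuclear receptor gene linked with TOX in exhausted cells, fell most in CD8+ cells, by 2.59. Junb in CD4+ cells changed by 0.47 and Batf in CD8+ cells by -0.24, the smallest changes past the threshold among the 12. In CD4+ cells Egr1 (-0.04, edgeR adjusted p = 0.625) and Fos (0.24, adjusted p = 0.062) did not pass, and neither did Egr3 and Fos in CD8+ cells. Fos turned negative in both lineages with scaling by total counts, to -0.20 and -0.48.

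Most of the exhaustion list fell at 50 mg/kg. In CD4+ cells 8 of 11 fell, 2 rose and 1 did not pass, and in CD8+ cells 8 fell, 2 rose and 1 did not pass, with medians of -0.90 and -1.14. Pdcd1 changed by -3.40 (SE 0.14, edgeR adjusted p = 1.05e-14) in CD4+ cells, where Tox changed by -3.39, and by -3.22 (SE 0.28, adjusted p = 1.04e-08) in CD8+ cells, where Tox changed by -4.07. At 5 mg/kg Pdcd1 did not pass in CD4+ cells (0.07, adjusted p = 0.588), where Tox was lower by 0.60. The inhibitory receptor gene Ctla4 fell by 0.38 in CD4+ cells, and Havcr2, which encodes TIM-3, did not pass there (-0.15, edgeR adjusted p = 0.148). Cd160 rose by 0.22 in CD8+ cells, a value of -0.31 with scaling by total counts, and Cd101 did not pass (0.02, and -0.51 with that scaling). Eomes, a T-box factor gene of memory and exhausted cells, rose at 50 mg/kg in both lineages and was lower by 0.84 at 5 mg/kg in CD4+ cells. With scaling by total counts, 0 genes of this list were called higher at 50 mg/kg in CD8+ cells and 1 in CD4+ cells. The rise of Eomes in CD8+ cells was thus not called with that scaling.

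Of 10 progenitor and follicular helper genes, 6 fell, 1 rose and 3 did not pass in CD4+ cells and 6 fell, 3 rose and 1 did not pass in CD8+ cells at 50 mg/kg, with medians of -1.04 and -0.66. Cxcr5, the receptor that takes follicular helper cells into B cell follicles, fell by 4.48 (SE 0.18, edgeR adjusted p = 3.73e-15) in CD4+ cells, the list's largest change there. In CD8+ cells it went from 123 UMIs under saline to 0 at 50 mg/kg, at least 52.4-fold lower, and Il21, the follicular helper cytokine, had 1 UMI left (187-fold lower, interval 33.0-7418). Bach2 rose by 0.43 in CD4+ cells (-0.0066 with scaling by total counts) and Sh2d1a by 0.20 in CD8+ cells (-0.33). Id3, Sh2d1a and Maf in CD4+ cells and Bach2 in CD8+ cells did not pass. The effector list was even, with 4 higher and 4 lower of 9 in CD4+ cells and 4 and 4 of 10 in CD8+ cells and medians of 0.02 and 0.00. Its largest change was in Cx3cr1, a chemokine receptor gene of terminal effectors, with 3 UMIs left in CD4+ cells (92.5-fold lower, interval 31.2-452) and a log2 change of -3.34 in CD8+ cells. Id2 rose by 0.69 in CD8+ cells and Prdm1 fell by 0.70 in CD4+ cells, and Tbx21 passed in neither lineage, nor Gzmb in CD8+ cells. Fewer genes passed at 5 mg/kg than at 50 mg/kg in each of these lists but the CD4+ progenitor and follicular helper list. In CD4+ cells 3 rose and 3 fell of the receptor-induced factors, 4 and 4 of the exhaustion list, 3 and 6 of the progenitor and follicular helper list, and 4 and 2 of the effector list, and in CD8+ cells 2 and 3, 2 and 4, 4 and 2, and 2 and 4.

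**Figure D5:**
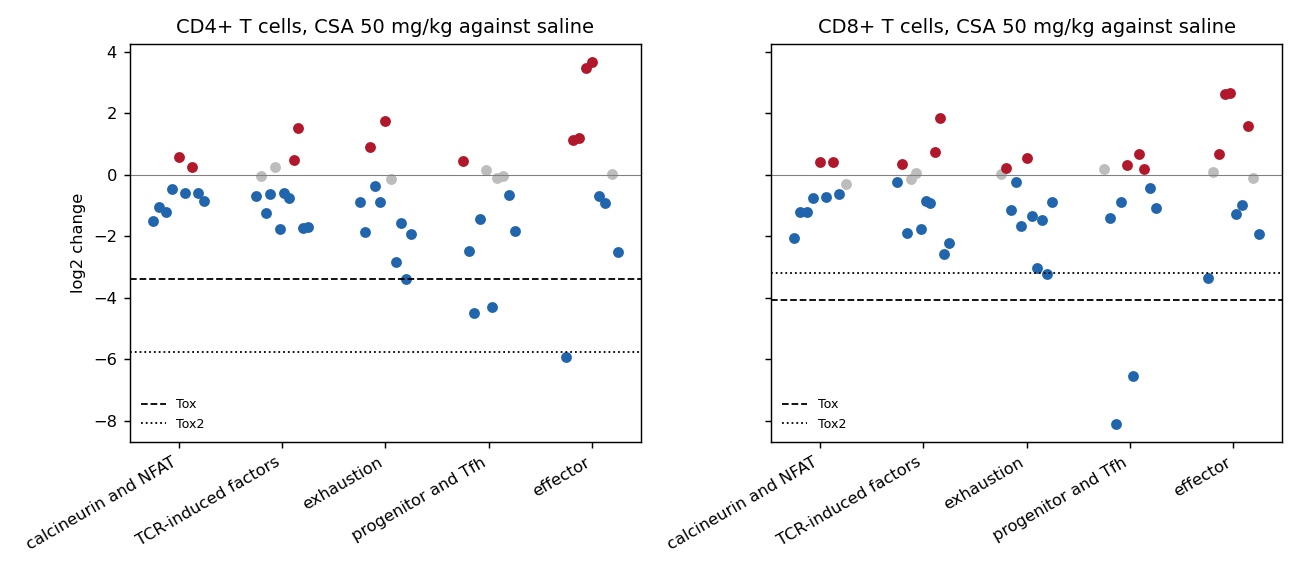
Log2 change at 50 mg/kg against saline of each listed gene (points; blue lower and red higher at adjusted p under 0.05, grey not passed), with Tox as a dashed and Tox2 as a dotted line, for CD4+ (left) and CD8+ cells (right). Few listed genes reach the lines. In CD4+ cells Pdcd1 (-3.40) and Cxcr5 (-4.48) reach the line of Tox (-3.39) but not that of Tox2 (-5.76). Cx3cr1 went there from 200 to 3 UMIs, 92.5-fold lower without TMM scaling, where Tox2 was 75.9-fold lower.

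Lastly, the genes whose levels ran most like those of Tox and Tox2 were sought across 58 profiles of lineage, cluster and dose with at least 50 cells, among 6059 genes averaging at least 20 CPM (Pearson's r of log2(CPM + 10)). The profiles share captures and pools, so r is a description. Nearest to Tox were Ptpn11 (0.94), Prkca (0.92), Fam117b (0.91), Fyn (0.91) and Lbh (0.90), of which Ptpn11 encodes the phosphatase SHP-2 and Fyn a kinase of receptor signalling. For Tox2 they were Sostdc1 (0.93), Cxcr5 (0.91), P2rx7 (0.90), Tbc1d4 (0.85) and Asap1 (0.84). With Spearman's rank correlation 4 of the 5 genes nearest to Tox and 2 of the 5 nearest to Tox2 were kept, and Tox and Tox2 themselves had r = 0.71.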

How the data were processed

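Splenic donor T cells were sorted per the study's methods into CD4+ and CD8+ cells, mixed 1:1 and captured once per group as 10x 5′ libraries with hashtags. The authors deposited whole-number UMI counts per gene and cell, with cluster, lineage, pool and clonotype. The submitters' processing notes name Cell Ranger (version not given in the sources used here), Seurat 3.0.0 and mm10. Cells were used as the authors deposited them, all marked by them as neither doublet nor dead, and no doublet caller was run. Replicates are the 9 hashtagged pools, grouped by label. Tox, Tox2 and all gene lists were chosen with earlier results of these data known.

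Counts were summed per pool and tested with edgeR 4.0.16 (R 4.3.3, limma 3.58.1): filterByExpr, TMM, quasi-likelihood fit over all 9 pools of a lineage, Benjamini-Hochberg adjustment over all genes, threshold 0.05, all two-sided. SEs were derived from the F statistic. The scripts were tested on simulated data. Alternatives were DESeq2 1.42.0, scaling by total counts, no filter, other cell minimums, non-cycling cells, a replicate block and leaving out each pool. Of each list, the text names the genes with the largest and smallest change past the threshold, those not passing where 5 or fewer, and, chosen after their values were seen, Nfatc1, Nfatc2, Il21 in CD8+ cells and Eomes. The shift of the lineage difference with dose was planned as a test and is given without one, since the dose changes chose the genes. Pool numbers did not pair the pools: deviations of pools with the same number correlated at -0.08 to 0.06.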

Additional observations from a re-analysis of the deposited data

How the results depend on the processing

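With few exceptions the dose changes of Tox and Tox2 kept their direction. Leaving out each pool in turn gave -0.68 to -0.56 and -3.46 to -3.31 for Tox and -0.19 to -0.03 and -6.56 to -5.45 for Tox2 in CD4+ cells (5 and 50 mg/kg), and -0.62 to -0.54, -4.36 to -3.95, 0.12 to 0.38 and -3.52 to -3.03 in CD8+ cells. Limits are 3 pools per group, 1 capture per group and 14 to 25 UMIs of Tox2 at 50 mg/kg.

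Scaling by total counts moved the changes at 5 mg/kg to -0.96 (Tox) and -0.48 (Tox2) in CD4+ cells and -0.99 and -0.22 in CD8+ cells, and at 50 mg/kg to -3.83 for Tox in CD4+ cells and -4.60 and -3.73 for Tox and Tox2 in CD8+ cells. Without cycling cells, Tox in CD4+ cells was -3.05 and Tox2 in CD8+ cells -4.00 at 50 mg/kg. With the replicate block the values were -0.60, -3.38, -0.12 and -5.76 in CD4+ and -0.57, -4.08, 0.21 and -3.21 in CD8+ cells (Tox at 5 and 50, Tox2 at 5 and 50 mg/kg), and it changed no call. With the block, genes called went from 5467 to 5420 and 7454 to 7500 in CD4+ and from 6523 to 6459 and 8024 to 8041 in CD8+ cells.

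For the lineage difference of Tox, leaving out pools gave 0.15 to 0.33 under saline and -0.70 to -0.33 at 50 mg/kg, and DESeq2 gave 0.24 and 0.27 at saline and 5 mg/kg, no longer passing. Its shift at 5 mg/kg, 0.00, was -0.032 with scaling by total counts, -0.0052 without the filter, -0.045 in CD4+ cells lacking Cd8b1 UMIs and -0.081 to 0.10 leaving out pools, and at 50 mg/kg the shifts were -0.95 to -0.59 for Tox and 2.32 to 3.02 for Tox2 leaving out pools. Expanded against single clonotypes gave, for Tox in CD4+ cells, 0.24 with DESeq2 and 0.25 to 0.36 leaving out pools, and for Tox in CD8+ cells 0.21 with scaling by total counts and 0.18 without the filter, both passing (adjusted p = 0.0437 and 0.0146, edgeR), and 0.16 to 0.25 leaving out pools, passing without saline replicate 1 and CSA 50 mg/kg replicates 1 and 2 (edgeR adjusted p = 0.0227, 0.0247 and 0.0374). For Tox2 in CD8+ cells that range was -0.22 to 0.032, and in TEa cells -0.12 to 0.38. With cluster shares held at those of 50 mg/kg, Tox at 5 mg/kg was -0.78 in CD4+ and -0.84 in CD8+ cells. With cells thinned to 3000 UMIs, the log2 change of the share with Tox in CD4+ cells at 50 mg/kg was -3.17. Spearman's rank correlation kept 2 of the 5 genes most like Tox2.

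With scaling by total counts the lists changed most. At 5 mg/kg in CD4+ cells 0 calcineurin, 0 exhaustion and 0 progenitor genes were higher, 6 receptor-induced and 5 effector genes lower and 1 effector gene higher, and at 50 mg/kg 0 calcineurin, 1 receptor-induced, 1 exhaustion and 0 progenitor genes were higher. In CD8+ cells at 5 mg/kg 8 receptor-induced, 7 exhaustion, 6 progenitor and 7 effector genes were lower and 1, 0 and 2 of the first 3 higher, and at 50 mg/kg 0 calcineurin, 0 exhaustion and 0 progenitor genes were higher. DESeq2 gave 0 lower TOX family genes and 1 lower effector gene (CD4+, 5 mg/kg), 1 higher exhaustion gene (CD4+, 50 mg/kg) and 1 lower progenitor gene (CD8+, 5 mg/kg). Genes whose sign turned with scaling by total counts at 50 mg/kg were, in CD4+ cells, Ppp3cc -0.20, Fos -0.20, Bach2 -0.0066, Id3 -0.30 and Tbx21 -0.42, and in CD8+ cells Ppp3ca -0.11, Fos -0.48, Cd160 -0.31, Cd101 -0.51, Sh2d1a -0.33, Bach2 -0.35 and Gzmb -0.43.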
